A study of Mus musculus with 12 samples.

Results

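The inhibin, activin and follistatin system was described in pituitary tumors of POMC knockout (KO) mice and in normal mouse pituitary. The genes were Inha, Inhba, Inhbb, Fst, Fstl3, Acvr1b, Acvr2a, Acvr2b, Tgfbr3 and Tgfbr3l, and every probe set whose platform annotation names 1 gene, and that gene is one of these 10, was taken. This gave 17 probe sets of 9 genes, among 45037 probe sets in the table, of which 34945 name 1 gene and together cover 18193 genes. No probe set is listed for Tgfbr3l alone, so it was not analysed here. The genes lie on mouse chromosomes 1 (Inha, Inhbb), 13 (Inhba, Fst), 10 (Fstl3), 15 (Acvr1b), 2 (Acvr2a), 9 (Acvr2b), 5 (Tgfbr3) and 8 (Tgfbr3l).

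Activins are dimers of beta subunits (encoded by Inhba and Inhbb) that bind type II receptors (Acvr2a, Acvr2b), which then recruit the type I receptor Acvr1b and activate the signal transducers Smad2 and Smad3. Inhibins pair a beta subunit with the alpha subunit (Inha) and compete for the type II receptors, helped by the co-receptor betaglycan (Tgfbr3), while follistatin (Fst) and the follistatin-like protein Fstl3 bind activin and keep it from its receptors. In the pituitary the system is best known in the gonadotroph, the cell that makes luteinizing hormone and follicle-stimulating hormone (FSH), where activin raises and inhibin and follistatin lower transcription of Fshb, the FSH beta subunit.

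Total RNA was hybridized to 12 Affymetrix Mouse Genome 430 2.0 arrays: 2 of homozygous POMC KO mice, 8 of heterozygous POMC KO mice and 2 of normal mice. The POMC KO mice carry 2 disrupted Pomc alleles when homozygous and 1 when heterozygous. Pomc encodes the precursor of adrenocorticotropic hormone and alpha-melanocyte-stimulating hormone, and both genotypes are used as a model of nonfunctioning pituitary adenoma because they grow pituitary tumors. No mouse was treated. Strain, age and sex of the mice on the arrays are not given in the sources used here. The methods name pooled normal pituitary as the comparator, and whether each normal array held a pool is not settled. Tumor arrays fell in 5 pairs with consecutive numbers, within which the correlation across probe sets was 0.997 to 0.998, and each pair was averaged and counted as 1 sample. This left 1 homozygous sample, 4 heterozygous samples, called tumors here (1-2, 3-4, 5-6 and 7-8), and 2 normal samples. The labels number every array as its own replicate, and whether the 2 arrays of a pair come from 1 tumor is not settled. Samples of the other groups stand in for the unknown spread of the single homozygous sample, and p-values measure the spread between these samples only.

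The labels were checked first. Pomc had a log2 signal of 7.18 in the homozygous sample, 15.25 ± 0.07 in heterozygous tumors (SD, n = 4) and 15.09 ± 0.02 in normal pituitary (SD, n = 2). Pomc set the homozygous sample apart but not heterozygous tumors from normal pituitary (log2 0.16, adjusted p = 0.330 by limma). Prolactin (Prl), a defining transcript of pituitary, had log2 signals of 15.04 in the homozygous sample, 13.91 to 14.94 in heterozygous tumors and 14.72 in both normal samples. Xist, which is expressed from the inactive X chromosome of female cells, was at 11.20 in the homozygous sample, at 4.58, 10.93, 5.0005 and 11.25 in heterozygous tumors 1-2, 3-4, 5-6 and 7-8 and at 5.07 and 4.57 in normal pituitary. The homozygous sample was therefore high and both normal samples were low, so that sex and homozygous genotype cannot be told apart. Heterozygous tumors 3-4 and 7-8 were high as well, and neither normal sample matched them in Xist.

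Values are log2 signals, so that 1 unit is a 2-fold difference, and signals of different probe sets are not comparable with each other. A probe set was tested when 2 or more arrays reached 5.74, the median of every value in the table, which held for 24486 probe sets. Of the 17, 12 were tested and they cover 8 genes. Both probe sets of Fst, 1 of 2 of Inhba (1458291_at), 1 of 2 of Acvr1b (1422098_at) and 1 of 3 of Acvr2b (1440525_at) were too low to be tested. A probe set was called at an adjusted p under 0.05 by limma and a fold change over 2, the thresholds of the methods.

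None of the 12 tested probe sets was called in any comparison. In heterozygous tumors 0 of 12 were called against normal pituitary, where 8.68% of all tested probe sets were. In the homozygous sample 0 of 12 were called, against 2.33% of all, and between the homozygous sample and heterozygous tumors 0 of 12 were called, against 0.249% of all. At an unadjusted p under 0.05 the counts were 6, 4 and 0 of 12 in these 3 comparisons, beside 36.8%, 18% and 9.26% of all tested probe sets. With the fold threshold set aside, a rule added after values were seen, 6 of 12 were lower in heterozygous tumors at an adjusted p under 0.05 and 0 were higher. This count depended on single samples: it was 1 without normal 2, 2 without normal 1, 3 without tumor 3-4, 5-6 or 7-8 and 4 without tumor 1-2, and it was 3 with each pair of arrays as a random block. Of all tested probe sets 22.1% passed that rule in heterozygous tumors in either direction and 9.75% in the lower one. The 6 belong to Inhba, Inhbb (both probe sets), Fstl3 and Tgfbr3 (both probe sets), and their decreases were between 1.31-fold and 1.94-fold. Inhba was above 5.74 in both normal samples and in no averaged tumor, so it entered the test mainly through the normal samples. With a filter at the 60th percentile, which left Inhba and 1 probe set of Inhbb untested, the count was 4. In the homozygous sample 0 of 12 passed the same rule, against 2.77% of all and 1.34% in the lower direction. The median log2 fold change of the 12 was -0.39 in the homozygous sample and -0.36 in heterozygous tumors, beside 0.01 and 0.03 over all tested probe sets. Both comparisons use the same 2 normal samples.

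The order of the samples was counted as well. In 7 of the 12 tested probe sets every heterozygous tumor lay below both normal samples, as did 21.8% of all tested probe sets, and in 1 (Acvr2b 1439856_at) every tumor lay above them, as did 25.5%. The homozygous sample lay below both normal samples in 9 of 12, as did 39.2% of all, and above both in 2, as did 39.8%. It fell inside the range of the heterozygous tumors in 6 of 12. Inhba, which entered the test mainly through the normal samples, is among the 7 and among the 9.

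Sequences just before the start of 2 of the genes that were lower in heterozygous tumors, Inhbb and Fstl3, are shown because Smad proteins bind DNA at the short core CAGAC, or GTCTG on the other strand. They are the 250 bases before the annotated start in RefSeq (GRCm38.p6), written along the gene, with matches of either form in capitals.
Inhbb, chr1:119422249-119422498, minus strand: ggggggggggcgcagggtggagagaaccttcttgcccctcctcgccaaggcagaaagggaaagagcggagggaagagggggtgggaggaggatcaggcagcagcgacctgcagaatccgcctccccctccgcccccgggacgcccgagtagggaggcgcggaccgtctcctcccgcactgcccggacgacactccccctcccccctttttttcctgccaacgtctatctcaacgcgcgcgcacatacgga
Fstl3, chr10:79777024-79777273, plus strand: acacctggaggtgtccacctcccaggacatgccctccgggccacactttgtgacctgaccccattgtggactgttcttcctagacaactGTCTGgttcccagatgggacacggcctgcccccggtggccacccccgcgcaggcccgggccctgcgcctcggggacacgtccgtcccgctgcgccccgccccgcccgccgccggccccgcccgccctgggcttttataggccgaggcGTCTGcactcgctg
The Inhbb stretch held 0 matches and the Fstl3 stretch held 2. Of the 10 genes, 8 had an entry and 4 of these held at least 1 match (Inha, Fstl3, Acvr2a and Acvr2b), beside 42.2% of 32851 mouse promoters of the same length. The letters describe these windows only and say nothing of binding.

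Inhbb, which encodes the beta B subunit of activin B and inhibin B, was lower in heterozygous tumors on both of its probe sets. On 1426858_at the log2 signal was 6.82 in the homozygous sample, 6.50, 7.48, 6.53 and 6.58 in heterozygous tumors 1-2, 3-4, 5-6 and 7-8 and 7.73 and 7.72 in normal pituitary. Every tumor lay below the normal samples, but tumor 3-4 stood close to them and far from the other tumors. The fold change was 1.94-fold lower in heterozygous tumors (log2 -0.95, standard error 0.28, adjusted p = 0.0467 by limma), under the threshold on p but short of that on fold, and so not called. Without tumor 3-4 it was -1.19 on the log2 scale with an adjusted p of 0.00281 by limma, which is a call. When any one of the other tumors or a normal sample was left out the adjusted p was 0.0783 to 0.191. The homozygous sample was at log2 -0.90 (standard error of 0.39, adjusted p = 0.285 by limma).

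The second probe set of Inhbb, 1426859_at, gave log2 signals of 6.01 in the homozygous sample, 5.98, 5.91, 5.87 and 6.01 in heterozygous tumors and 6.51 and 6.30 in normal pituitary. All tumors lay together below the normal samples, and tumor 3-4 did not stand apart. The log2 fold change was -0.46 in heterozygous tumors (95% interval -0.73 to -0.19, adjusted p = 0.0278 by limma) and -0.39 in the homozygous sample (adjusted p = 0.262). Arrays of a single pair differed by up to 0.40 here, nearly as much as tumors and normal pituitary did. With each sample left out in turn the adjusted p was between 0.0379 and 0.185, and it was over 0.05 without tumor 3-4, tumor 5-6, normal 1 or normal 2. The 2 probe sets therefore had the same direction but differed in size and in the place of tumor 3-4.

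Inhba, which encodes the beta A subunit of activin A and inhibin A, was near the limit of measurement. Probe set 1422053_at gave 5.37 in the homozygous sample, 5.45, 5.42, 5.57 and 5.47 in heterozygous tumors and 5.95 and 5.80 in normal pituitary. Both normal samples and no averaged tumor were above 5.74, so this probe set entered the test mainly through the group in which it was high. It was 1.31-fold lower in heterozygous tumors (log2 -0.39, standard error 0.11, adjusted p = 0.0412 by limma) and at -0.50 in the homozygous sample (adjusted p = 0.154). Arrays of a single pair differed by up to 0.55, more than the difference between the groups. With each sample left out in turn the adjusted p rose to as much as 0.226, and only without tumor 5-6 was it under 0.05. The other probe set, 1458291_at, was at 3.71 in the homozygous sample, 3.58 to 4.12 in heterozygous tumors and 3.91 and 3.99 in normal pituitary, with overlapping groups.

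Inha, the alpha subunit that turns a beta subunit into inhibin, was at 7.82 in the homozygous sample, 8.04, 7.81, 7.79 and 7.91 in heterozygous tumors and 8.39 and 8.03 in normal pituitary. Tumor 1-2 lay above the lower normal sample, and the 2 normal samples differed from each other by more than the tumors did. The log2 fold change was -0.32 in heterozygous tumors (95% interval -0.66 to 0.01, adjusted p = 0.149 by limma) and -0.39 in the homozygous sample (95% interval -0.86 to 0.09, adjusted p = 0.370), so a decrease could not be told from the spread. These are transcripts in whole tissue, in which fewer cells of a type and less RNA per cell cannot be told apart.

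**Figure D1:**
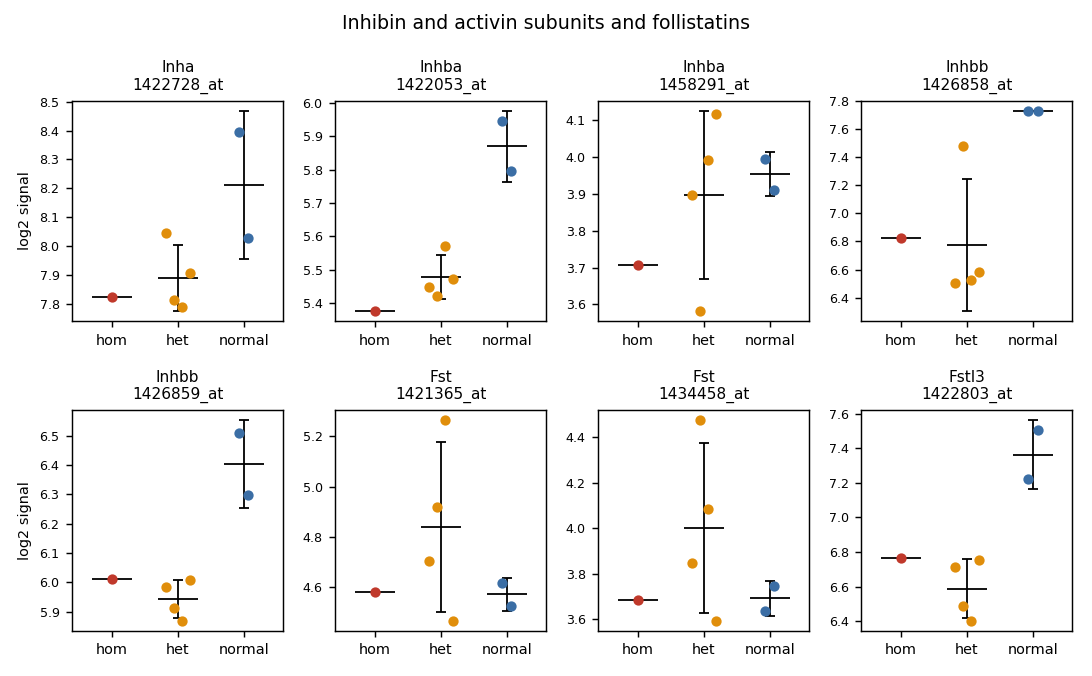
Log2 signal of each probe set of the subunits and the follistatins in the homozygous sample (hom, red), the 4 heterozygous tumors (het, orange) and the 2 normal samples (blue), with the mean as a line and the SD as a bar where a group has more than 1 sample. Each panel has its own axis. On Inhbb 1426858_at tumor 3-4 lies at 7.48, near the normal samples at 7.73 and 7.72, and the other tumors lie between 6.50 and 6.58.

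Fstl3, a secreted and nuclear relative of follistatin that binds activin, was lower in heterozygous tumors. The log2 signal was 6.76 in the homozygous sample, 6.71, 6.49, 6.40 and 6.75 in heterozygous tumors and 7.22 and 7.50 in normal pituitary. No tumor reached the lower normal sample. Fstl3 was 1.71-fold lower in heterozygous tumors (log2 -0.77, standard error 0.15, 95% interval -1.13 to -0.42, adjusted p = 0.0111 by limma). Without normal 2 the log2 fold change was -0.63 and the adjusted p 0.0894, and the p was under 0.05 without any other single sample. The homozygous sample was at log2 -0.60 (standard error of 0.21, adjusted p = 0.196 by limma).

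Fst, follistatin itself, was low on both probe sets in every group. Probe set 1421365_at gave 4.58 in the homozygous sample, 4.70, 4.92, 5.27 and 4.47 in heterozygous tumors and 4.62 and 4.52 in normal pituitary. Probe set 1434458_at gave 3.68 in the homozygous sample, 3.85, 4.48, 4.09 and 3.59 in heterozygous tumors and 3.64 and 3.75 in normal pituitary. On each, 3 of 4 tumors lay above both normal samples and tumor 7-8 lay below both. In a fit with no filter on low values the log2 fold changes in heterozygous tumors were 0.27 (adjusted p = 0.449 by limma) and 0.31 (adjusted p = 0.420). Arrays of a single pair differed by up to 1.01 on 1434458_at. The groups overlapped, and no direction can be given for Fst.

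Tgfbr3, betaglycan, the co-receptor that gives inhibin its affinity for type II activin receptors, had the lowest adjusted p of the 12 in heterozygous tumors. On 1433795_at the log2 signal was 10.35 in the homozygous sample, 10.39, 10.15, 9.90 and 10.17 in heterozygous tumors and 11.14 and 11.08 in normal pituitary. Tumors and the homozygous sample lay well below both normal samples, and arrays of a pair differed by at most 0.04. Tgfbr3 was 1.94-fold lower in heterozygous tumors (log2 -0.96, standard error 0.15, 95% interval -1.31 to -0.61, adjusted p = 0.00450 by limma), short of the fold threshold. Without tumor 1-2 the log2 fold change was -1.04 (adjusted p = 0.00545), which is a call. The adjusted p stayed under 0.05 in all 17 alternative settings, with 0.0464 as the highest, a record that none of the other 11 tested probe sets had. The homozygous sample was at log2 -0.76 (standard error of 0.21, 95% interval -1.25 to -0.27, adjusted p = 0.112 by limma).

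The dimmer Tgfbr3 probe set, 1425620_at, gave 6.48 in the homozygous sample, 6.67, 6.19, 6.32 and 6.37 in heterozygous tumors and 6.90 and 7.04 in normal pituitary. Again no tumor reached the normal samples. The log2 fold change was -0.59 in heterozygous tumors (adjusted p = 0.0321 by limma) and -0.50 in the homozygous sample (adjusted p = 0.286). Leaving out each sample in turn gave adjusted p between 0.0143 and 0.172, under 0.05 only without tumor 1-2.

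The activin receptors did not pass a threshold in any comparison. Acvr1b, the type I receptor ALK4, was at 8.88 in the homozygous sample, 8.51, 8.74, 8.39 and 8.68 in heterozygous tumors and 8.58 and 8.56 in normal pituitary on 1433725_at. The tumors lay on both sides of the normal samples. The log2 fold change was 0.01 in heterozygous tumors (95% interval -0.30 to 0.32, adjusted p = 0.962 by limma) and 0.31 in the homozygous sample (95% interval -0.12 to 0.75, adjusted p = 0.434). On the low probe set 1422098_at the groups overlapped, with 4.87 in the homozygous sample, 4.84 to 5.18 in heterozygous tumors and 4.84 and 4.91 in normal pituitary.

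Acvr2a, a type II receptor for activin and the main one on the FSH axis in mice, was at 8.85 in the homozygous sample, 8.68, 8.80, 8.64 and 9.08 in heterozygous tumors and 9.10 and 8.998 in normal pituitary on 1437382_at. Tumor 7-8 lay between the normal samples and the others below them. The log2 fold change was -0.25 in heterozygous tumors (95% interval -0.60 to 0.10, adjusted p = 0.266 by limma). On 1451004_at it was 0.04 (95% interval -0.21 to 0.29, adjusted p = 0.808), with all samples between 6.78 and 6.96. The values of the homozygous sample were -0.20 and -0.03 (adjusted p = 0.671 and 0.945).

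Acvr2b, the other type II receptor, had probe sets that pointed in opposite directions. On 1419140_at the signal was 6.57 in the homozygous sample, 6.89, 6.69, 6.58 and 6.35 in heterozygous tumors and 6.94 in both normal samples. On 1439856_at it was 6.60 in the homozygous sample, 6.59, 6.45, 6.53 and 6.48 in heterozygous tumors and 6.42 and 6.05 in normal pituitary. All tumors were thus below the normal samples on one probe set and above them on the other. The log2 fold changes in heterozygous tumors were -0.31 (adjusted p = 0.204 by limma) and 0.28 (adjusted p = 0.173), and in the homozygous sample -0.36 (adjusted p = 0.448) and 0.37 (adjusted p = 0.359). The third, 1440525_at, was low, at 4.47 in the homozygous sample, 4.36 to 4.56 in heterozygous tumors and 4.69 and 4.71 in normal pituitary. No direction can be given for Acvr2b.

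**Figure D2:**
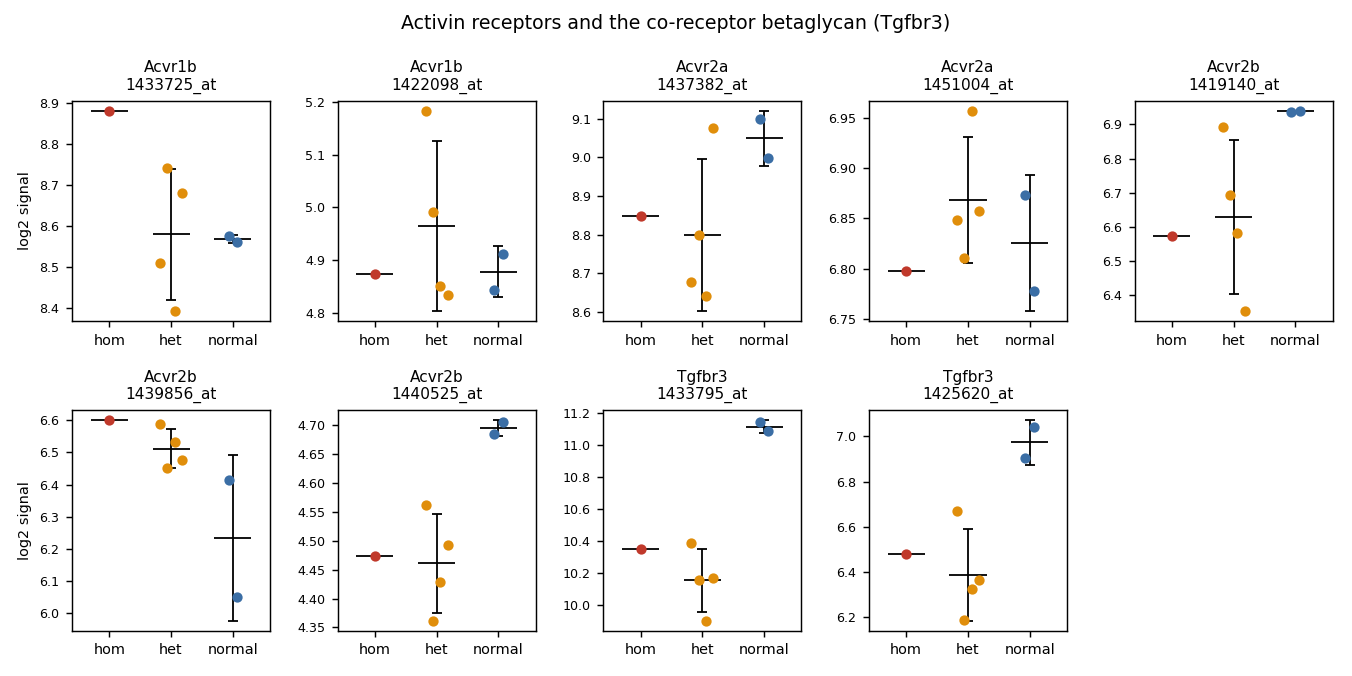
Log2 signal of each receptor and betaglycan probe set in the homozygous sample (hom, red), the 4 heterozygous tumors (het, orange) and the 2 normal samples (blue), with the mean as a line and the SD as a bar where a group has more than 1 sample. Each panel has its own axis. Both Tgfbr3 probe sets show all tumors below the normal samples, and the Acvr2b probe sets 1419140_at and 1439856_at run in opposite directions.

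Between the homozygous sample and heterozygous tumors, the differences were small. The 12 log2 fold changes had a median of 0.06, beside -0.02 over all tested probe sets, and the largest was 0.30, on Acvr1b 1433725_at (adjusted p = 0.691 by limma). For Tgfbr3 1433795_at the difference was 0.20 (95% interval -0.25 to 0.64), for Fstl3 0.17 (95% interval -0.28 to 0.63) and for Inhbb 1426858_at 0.05 (95% interval -0.79 to 0.89). With 1 homozygous sample, a p above the threshold does not show that the genotypes had the same level.

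**Figure D3:**
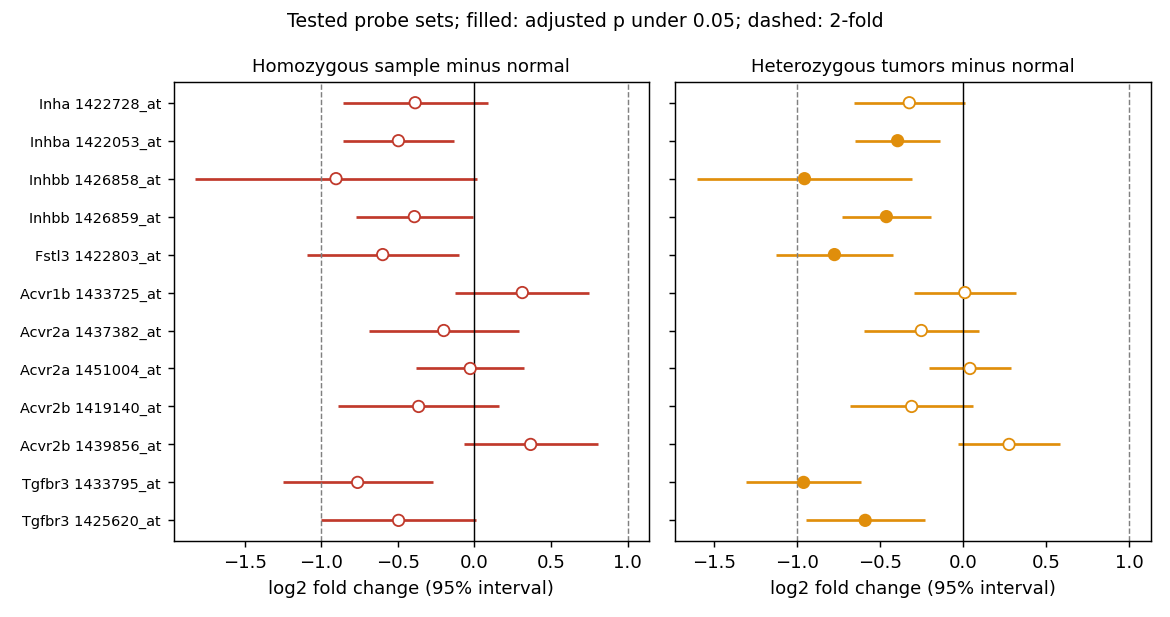
Log2 fold change of the 12 tested probe sets against normal pituitary, with its 95% interval, in the homozygous sample (left) and heterozygous tumors (right). Filled points have an adjusted p under 0.05 and dashed lines mark a 2-fold change. The 6 filled points, of Inhba, Inhbb, Fstl3 and Tgfbr3, all lie in heterozygous tumors and between log2 -0.39 and -0.96.

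Genes of the gonadotroph, the pituitary cell in which this system is best known, were also lower in heterozygous tumors. Fshb was at 8.75 in the homozygous sample, 5.44, 6.29, 9.32 and 7.43 in heterozygous tumors and 13.06 and 12.96 in normal pituitary. Fshb stood at log2 -4.26 in the homozygous sample (adjusted p = 0.151 by limma, standard error 1.32) and fell by 5.89 in heterozygous tumors (adjusted p = 0.00511, standard error 0.93). Foxl2, a transcription factor that acts with Smad proteins on the Fshb promoter in mice, was at 7.38 in the homozygous sample, 5.90 to 6.50 in heterozygous tumors and 8.72 and 8.76 in normal pituitary. It was called lower in both, at log2 -1.36 (adjusted p = 0.0383) and -2.60 (adjusted p = 0.000290). Gnrhr, the receptor for gonadotropin-releasing hormone, was at log2 -2.25 in the homozygous sample (adjusted p = 0.101) and was called lower in heterozygous tumors (log2 -3.97, adjusted p = 0.00106), where all tumors, at 3.38 to 4.97, were below the level for testing and near the floor.

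Of 8 gonadotroph markers tested, 4 were called lower in the homozygous sample (Gata2, Foxl2, Nr5a1 and Nr0b1) and 7 in heterozygous tumors, where all but Cga, the common alpha subunit, were called. Of all tested probe sets, 1.07% were called lower in the homozygous sample and 3.77% in heterozygous tumors. Gnrhr, Nr5a1 and Nr0b1 reached the level for testing in the normal samples but in no averaged heterozygous tumor, and so entered the test through the group in which they were high. Of the 5 other markers, 2 were called lower in the homozygous sample (Gata2 and Foxl2) and 4 in heterozygous tumors (Fshb, Lhb, Gata2 and Foxl2). Cga was at 14.30 in the homozygous sample, 10.98 to 13.87 in heterozygous tumors and 14.73 and 14.72 in normal pituitary (log2 -2.19 in heterozygous tumors, adjusted p = 0.0612 by limma). The mean level of the list was 7.91 in the homozygous sample, 5.83 to 7.14 in heterozygous tumors and 10.04 to 10.06 in normal pituitary. The part of gonadotroph content in the lower Inhbb, Fstl3 and Tgfbr3 was not tested.

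**Figure D4:**
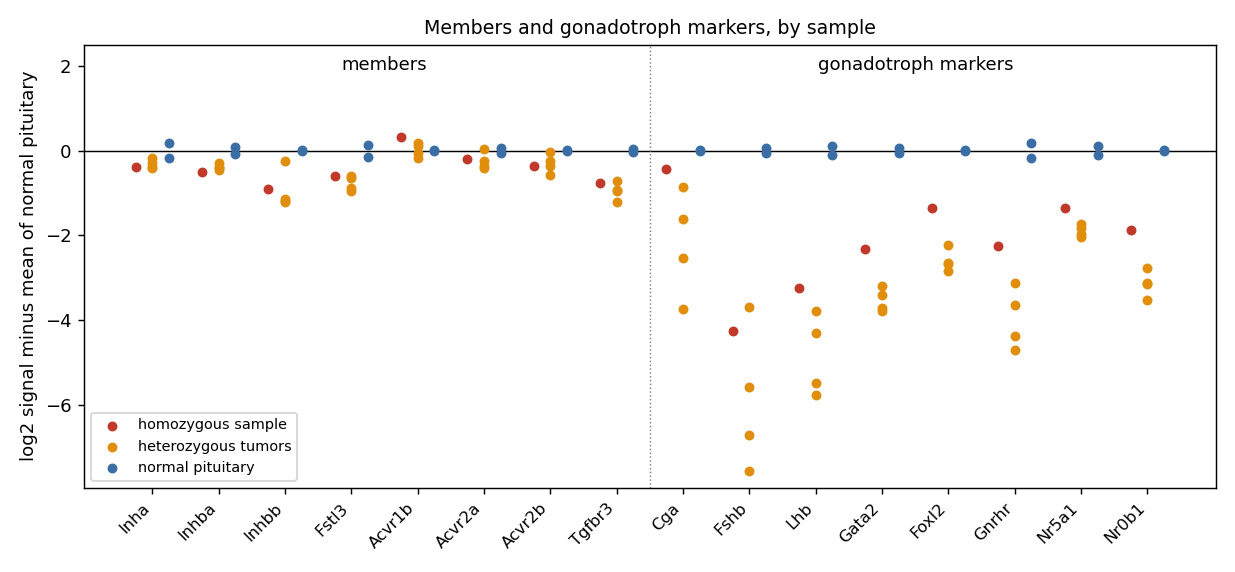
Log2 signal of each gene minus its mean in normal pituitary, for the 8 tested genes of the inhibin and activin system (left) and 8 gonadotroph markers (right), with 1 probe set a gene. Points are the homozygous sample (red), the 4 heterozygous tumors (orange) and the 2 normal samples (blue). In heterozygous tumors Tgfbr3 averages -0.96 and Inhbb -0.95, and Fshb averages -5.89. Where a gene of the system has several tested probe sets, the one highest in normal pituitary is shown. Not shown are Inhbb 1426859_at (log2 -0.46 in heterozygous tumors), Acvr2a 1451004_at (0.04), Acvr2b 1439856_at (0.28) and Tgfbr3 1425620_at (-0.59).

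Markers of other cells also moved between the groups. Of 8 macrophage markers, 2 were called higher in the homozygous sample and 6 in heterozygous tumors, beside 1.26% and 4.91% of all tested probe sets. Adgre1, 1 of the 6, reached the level for testing in neither normal sample, and so entered the test through the tumors, in which it was high. Cd68, another of the 6, was below that level in 1 normal sample. The level of the macrophage list was 7.94 in the homozygous sample, 8.17 to 8.83 in heterozygous tumors and 6.54 to 6.82 in normal pituitary. None of 3 thyrotroph markers was called lower in the homozygous sample and all 3 were in heterozygous tumors, and the level of that list was 8.67 in the homozygous sample, 5.82 to 7.53 in heterozygous tumors and 9.39 to 9.46 in normal pituitary. Of 7 fibroblast and pericyte markers, 0 were called in the homozygous sample and 3 were called lower in heterozygous tumors (Dcn, Lum and Pdgfra). The level of the fibroblast and pericyte list was 8.15 in the homozygous sample, 8.16 to 9.38 in heterozygous tumors and 8.94 to 9.13 in normal pituitary. On that level heterozygous tumors lay on both sides of the normal samples. Of 6 folliculostellate and stem cell markers 1 was lower in the homozygous sample and 2 in heterozygous tumors, and of 5 endothelial markers 0 were called in either. The 1 tested pituicyte and glia marker, Slc1a3, was lower in both. Of 5 melanotroph and corticotroph markers, Pomc was the 1 called in the homozygous sample, and in heterozygous tumors Pax7 was higher and Crhr1 lower. Of 2 somatotroph and 3 lactotroph markers 1 each was lower in heterozygous tumors (Ghrhr and Esr1) and 0 in the homozygous sample. Of the markers called lower here in heterozygous tumors, Trhr of the thyrotroph list, Crhr1 and Slc1a3 were also above the level for testing in normal pituitary and below it in every heterozygous tumor. The part of these cells in the differences of the inhibin and activin genes was not tested.

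The wider activin and transforming growth factor beta (TGF-beta) pathway was followed in a list of 59 further genes, of which 57 had a probe set and 41 were tested. In the homozygous sample 1 of 41 was called higher and 3 lower, beside 1.26% higher and 1.07% lower of all tested probe sets. In heterozygous tumors 3 of 41 were called higher and 9 lower, beside 4.91% and 3.77% of all. Grem1, Smad6 and Tgfb2, all among the 9, reached the level for testing in the normal samples but in no averaged heterozygous tumor, so that they entered the test through the group in which they were high. Without them 1 of 38 was called lower in the homozygous sample (Smurf1) and 6 in heterozygous tumors. Of the 3 called higher in heterozygous tumors, Tgfb1 reached that level in every tumor but in neither normal sample. Over all tested probe sets, the balance of higher and lower calls depended on scaling. In the homozygous sample 308 probe sets were called higher and 263 lower, and with arrays centred on housekeeping genes 263 were higher and 375 lower. In heterozygous tumors 1203 were called higher and 923 lower, and with that centring 985 were higher and 1149 lower. The median log2 fold change of the 41 was -0.22 in the homozygous sample and -0.26 in heterozygous tumors.

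Among the higher genes, Id2, an inhibitor of basic helix-loop-helix transcription factors that responds to bone morphogenetic protein (BMP) signaling, was at 9.40 in the homozygous sample, 10.30, 10.40, 10.41 and 9.64 in heterozygous tumors and 7.55 and 7.78 in normal pituitary. It rose by log2 1.74 in the homozygous sample (adjusted p = 0.0438 by limma) and by 2.52 in heterozygous tumors (adjusted p = 0.000679). Its relative Id3 was higher in heterozygous tumors by log2 1.40 (adjusted p = 0.0294), and so was Tgfb1, the ligand TGF-beta 1, by 1.37 (adjusted p = 0.0139). Both normal samples of Tgfb1, at 5.38 and 5.05, were below the level for testing. It entered the test through the tumors, in which it was high, and its rise is set against values near the floor.

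Among the lower genes, Grem1, a secreted BMP antagonist, was at 4.80 in the homozygous sample, 4.90, 5.26, 5.74 and 4.98 in heterozygous tumors and 8.22 and 7.67 in normal pituitary. It was called lower in the homozygous sample (log2 -3.15, adjusted p = 0.0114 by limma) and in heterozygous tumors (log2 -2.73, adjusted p = 0.000761), but every averaged tumor value was below the level for testing, so these sizes are set against values near the floor. Bambi, a decoy receptor without a kinase domain, had a log2 fold change of -0.997 in the homozygous sample (adjusted p = 0.0964) and fell by 1.32 in heterozygous tumors (adjusted p = 0.00283). Igsf1, a membrane glycoprotein of the pituitary once proposed as an inhibin co-receptor, was at 10.58 in the homozygous sample, 8.92, 9.61, 8.63 and 10.26 in heterozygous tumors and 11.63 and 11.69 in normal pituitary. Igsf1 was at log2 -1.07 in the homozygous sample (adjusted p = 0.393 by limma) and fell by 2.30 in heterozygous tumors (adjusted p = 0.00859). Fstl5, a follistatin-like protein, was at log2 0.44 in the homozygous sample (adjusted p = 0.630) and fell by 1.41 in heterozygous tumors (adjusted p = 0.0145). In 3 heterozygous tumors Fstl5 was below the level for testing, so the size of this fall is set against values near the floor.

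In heterozygous tumors the ligands Bmp6 and Tgfb2 fell by log2 1.76 and 1.17 (adjusted p = 0.000311 and 0.0191 by limma). Pcsk6, a protease that matures ligands of the family, fell by 2.22 (adjusted p = 0.00213). Smad6, which blocks BMP signaling inside the cell, was at 4.68 in the homozygous sample, 4.21 to 4.26 in heterozygous tumors and 5.90 and 6.35 in normal pituitary, and was called lower in both. As with Grem1, only the normal samples reached the level for testing. The ubiquitin ligase Smurf1 fell by 1.12 in the homozygous sample and by 1.08 in heterozygous tumors.

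The transducers that activin itself uses were not called. In heterozygous tumors the log2 fold change was 0.26 for Smad2 (adjusted p = 0.207 by limma), -0.39 for Smad3 (adjusted p = 0.0937), 0.15 for the common partner Smad4 (adjusted p = 0.433) and -0.29 for the inhibitor Smad7 (adjusted p = 0.105). In the homozygous sample the values were 0.21 for Smad2, -0.29 for Smad3, 0.16 for Smad4 and -0.34 for Smad7, with adjusted p of 0.325 to 0.703.

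**Figure D5:**
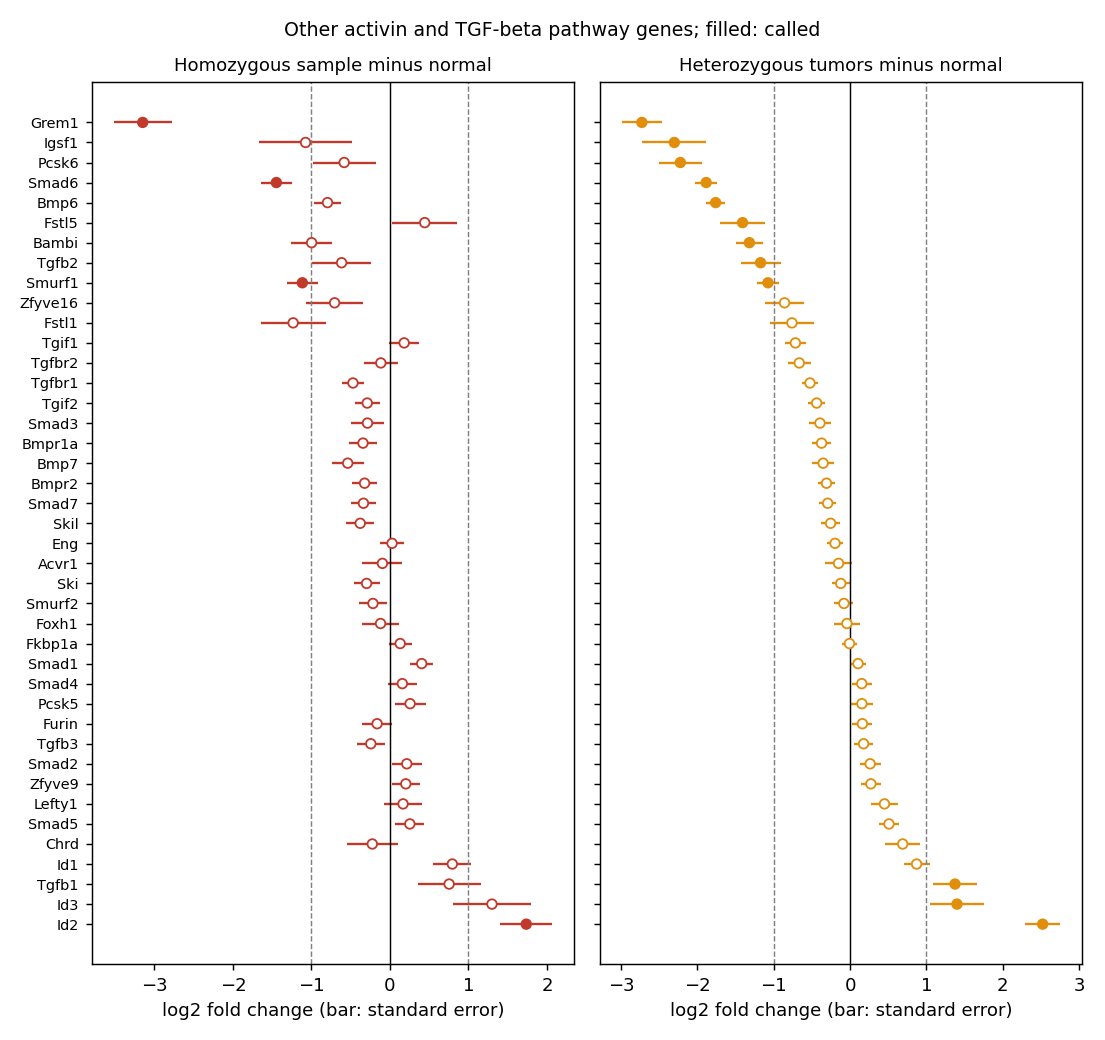
Log2 fold change against normal pituitary of the 41 tested genes of the wider pathway, with the standard error as a bar, in the homozygous sample (left) and heterozygous tumors (right). Filled points were called and dashed lines mark a 2-fold change. Id2 and Grem1 lie at the ends of the scale in heterozygous tumors, at log2 2.52 and -2.73.

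Genes with a pattern most like those that passed the adjusted p alone were found by Pearson r over the 7 samples, a choice of genes made after values were seen. For Tgfbr3 these were Cobl and Myo18a (r = 0.996 each) and Rcan3 (0.990), for Fstl3 Chd5 (0.989), Plpbp and Cldn9 (0.988 each), for Inhbb Pdgfra (0.988), Dgkh (0.987) and Chsy1 (0.981), and for Inhba Acad12 (0.995), Ap2a2 and Sh3rf3 (0.993 each). With 7 points that share 2 normal samples, values this high are a description only. Pdgfra, which is on the list of fibroblast and pericyte markers, averaged 5.97 in the homozygous sample, 5.99 ± 0.58 in heterozygous tumors (SD, n = 4) and 7.47 ± 0.07 in normal pituitary (SD, n = 2). In 2 heterozygous tumors Pdgfra was below the level for testing.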

How the data were processed

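Pituitary RNA of POMC KO and normal mice was measured on Affymetrix Mouse Genome 430 2.0 arrays. The deposited values are log2 signals that the authors made with the Robust Multichip Average algorithm, which corrects background, quantile-normalizes the arrays and summarizes each probe set. The submitters' processing notes name Affymetrix Expression Console, and the methods name GeneSpring GX. Quantile normalization makes values relative to the whole array. Neither raw images nor detection calls were analysed here, nor were scan dates, and the precision is limited by the number of arrays.

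Genes were named from GEO's platform annotation, in which 34945 probe sets name 1 gene, 932 several and 9160 none, beside 64 controls. A probe set naming Orc4 and Acvr2a was left out. Positions and promoters are RefSeq's (GRCm38.p6). The 5 pairs of near-identical tumor arrays were averaged. Limma 3.58.1 in R 4.3.3 (lmFit, eBayes, Benjamini-Hochberg adjustment over 24486 tested probe sets) fitted the 3 groups over 7 samples with 4 residual degrees of freedom. The methods' filter on detection calls was replaced by the median filter. The fit was tested on simulated data with 200 changed probe sets.

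The genes, lists and tests were chosen with earlier results of these data known. Named are all 10 genes, genes of the wider pathway and of the gonadotroph list that were called, Smad2, Smad3, Smad4, Smad7, Foxl2, Fshb and Gnrhr by value, and up to 3 genes of each other marker list. Where a gene of these lists has several tested probe sets, the one of highest mean stands for it. The likeness of patterns was planned for called genes and, since 0 were called, was given for those with an adjusted p under 0.05. Alternatives covered the pairing of arrays, a replicate block, the methods' one-way test, filters, normalization, Xist, the variance trend and leaving out each sample. A fit with the tumors of low Xist only was added after seeing the data.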

Additional observations from a re-analysis of the deposited data

Results flagged for a closer look

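Of 31 groups of 4 heterozygous tumors examined, 2 had 1 sample far from the others by Dixon's criterion at its 95% critical value, and chance alone flags about 1 in 20. Inhbb 1426858_at had a log2 signal of 7.48 in tumor 3-4, against 6.50 to 6.58 in the other tumors, and the gap was 0.917 of the group's range. Id2 had a log2 signal of 9.64 in tumor 7-8, against 10.30 to 10.41 in the other tumors, and the gap was 0.863 of the range.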

How the results depend on the processing

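There were 1 homozygous sample and 2 normal samples, and the calls of the homozygous comparisons depended on how arrays were counted and on single samples. In the homozygous sample 571 probe sets were called against normal pituitary, 1203 with 12 arrays as separate samples, 940 with the pair as a random block, 1261 by the methods' one-way test and 64 to 654 with 1 sample left out (64 without normal 2, 73 without normal 1 and 330 without tumor 3-4). Against heterozygous tumors 61 were called, and 498, 222 and 575 in the same 3 settings, 97 with no filter, 35 with a filter at the 60th percentile and 33 to 234 with 1 sample left out (33 without either normal sample, 34 without tumor 3-4 and 234 without tumor 7-8). The one-way test gives 1 p over all groups, so 1261 and 575 are not tests of the homozygous sample against 1 other group. Between the arrays numbered 1 of each group the correlations of deviations were 0.07, -0.0026 and -0.11. Only these arrays were compared, and the 2 homozygous arrays were near-identical, so a pairing by replicate number is not settled. With the replicate block 1413 and 1283 probe sets were called in these comparisons and 1 of the inhibin and activin probe sets in heterozygous tumors, Inhbb 1426858_at (log2 -1.22, adjusted p = 0.000323 by limma).

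Of the inhibin and activin probe sets, 0 were called in heterozygous tumors, 2 with arrays centred on housekeeping genes (Inhbb 1426858_at and Tgfbr3 1433795_at, both log2 -1.07), 1 with Xist as a covariate, 1 with the tumors of low Xist only (Inhbb 1426858_at in both) and 0 to 1 with 1 sample left out. Housekeeping centring moved the median of all probe sets by -0.11. The 6 probe sets that passed the adjusted p alone became 3 with the pair as a random block and 3 with the tumors of low Xist only. They became 4 with a filter at the 60th percentile, where Inhba and 1 probe set of Inhbb were not tested. With 1 sample left out they became 1 to 4, the 1 without normal 2. The causes were not tested. In the homozygous comparisons 0 of the probe sets were called in every setting. The 6 probe sets with an adjusted p under 0.05 were lower in heterozygous tumors in every setting that tested them. They were chosen for this direction in the same data. On each of them every tumor lay below both normal samples, so leaving out a sample could not change the sign. The shared direction is therefore no added support.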
